A study of Mus musculus with 15 samples.

Results

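Livers of adult male mice fathered by neonatally overfed males (ON F2) were compared with livers of the overfed males themselves (ON F1), also taken in adulthood. Arrays were chosen by their sample titles, pools 13, 14 and 15 for ON F2 and pools 7, 8 and 9 for ON F1, so 6 of the 15 arrays of the series carry the comparison, and no control array entered it. ON F1 males were overfed during lactation, and ON F2 males are the male offspring of such males, with no feeding change of their own stated. The IUGR lineage was set beside them: IUGR F2 males (pools 10, 11 and 12) are the male offspring of males underfed by 50% in utero, and IUGR F1 males (pools 4, 5 and 6) are those underfed males. The study asked whether liver expression of malnourished males is found again in their offspring through the paternal line. Each array (Affymetrix GeneChip Mouse Genome array) held RNA of whole liver from a pool, and the titles' number 3 was taken as the livers in each pool. Strain, exact age and the hour of tissue collection are not given in the sources used here. Whether an ON F2 pool holds offspring of the males of a given ON F1 pool is not stated, so pools were not paired, and generation cannot be told apart from anything else that differed between the collections. Nothing says that the pools of a group came from separate litters, so the p-values cover only how far these particular pools varied, which may be technical.

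Liver changes its expression with feeding, sex hormones and time of day. The nuclear receptors CAR and PXR switch on cytochromes P450 and transporters that clear foreign compounds, and the pattern of growth hormone secretion sets male-biased and female-biased liver genes. The circadian clock, in which CLOCK or NPAS2 pairs with ARNTL and is opposed by PER, CRY and NR1D proteins, drives daily rhythms of many metabolic genes.

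Values are log2 RMA levels (robust multi-array average), given for ON F2 pools 13, 14 and 15 and for ON F1 pools 7, 8 and 9 in that order, and differences are log2 fold changes, ON F2 minus ON F1, with the standard error from limma. The tissue and sex labels held: in the 6 arrays albumin (Alb) lay between 14.41 and 14.49, the Y-linked Eif2s3y between 7.59 and 8.22, and Xist between 3.75 and 4.39. Array medians lay between 4.61 and 4.68, correlations between arrays across genes between 0.983 and 0.994, and 0 pairs of arrays were identical. RNA length, read as the log2 ratio of the actin controls at the 3' end over those at the 5' end, was 1.95, 2.06 and 2.10 in the ON F2 pools, against 1.92, 2.22 and 2.09 in the ON F1 pools. The same ratio of the Gapdh controls was 1.12, 1.21 and 1.16 in the ON F2 pools, against 1.15, 1.43 and 1.30 in the ON F1 pools, with ON F1 pools 8 and 9 above all ON F2 pools, and its part in the results was not tested. Some pools stood apart for gene groups, with values given beside those groups: ON F2 pool 13 most of all for genes of the exocrine pancreas and less so for glucocorticoid response and Kupffer cell genes, ON F1 pool 8 for interferon response genes and ON F1 pool 7 for fatty acid synthesis and acute phase genes. Clock genes also differed between pools, with a clock score (mean of 8 genes of the opposing arm and output minus mean of 4 of the driving arm) of 0.80, 2.18 and -0.89 in the ON F2 pools, against -2.02, -1.69 and -1.39 in the ON F1 pools. All ON F2 pools lay above all ON F1 pools in this score.

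Of 18193 genes, 188 (1.03%) differed between ON F2 and ON F1 livers at a limma adjusted p of 0.05. In ON F2 livers 63 were higher (0.346% of all genes) and 125 were lower (0.687%), and 3483 genes (19.1%) had an unadjusted p under 0.05. With each array centred on its own median 59 were higher and 199 lower. All 188 had the 3 ON F2 pools outside the range of the 3 ON F1 pools, as had 3904 of all genes (21.5%, with 7.4% higher and 14.1% lower in every ON F2 pool). The median absolute difference of the 188 was 0.546, and 27 differed by more than 1 on the log2 scale, 10 higher and 17 lower in ON F2. The mean level was below 5, where probe sets are dim, in 32 of the 188. Over all genes the median difference was -0.03, and 43.4% of differences were positive. The spread was estimated over 12 arrays, those of the IUGR lineage included, and with the 6 ON arrays alone 7 genes passed, all of them among the 188. Single pools moved the count: 30 genes passed without ON F2 pool 13, 29 without ON F2 pool 14 and 22 without ON F1 pool 7, against 132 to 203 without 1 of the other ON pools. Without 1 IUGR pool the count was 74 (pool 4), 183 (pool 5), 79 (pool 6), 77 (pool 10), 83 (pool 11) or 104 (pool 12). Fitted with the clock score, 0 genes passed (smallest limma adjusted p 0.0508), while 1245 genes had an unadjusted p under 0.05, and all 188 genes kept their sign.

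**Figure D1:**
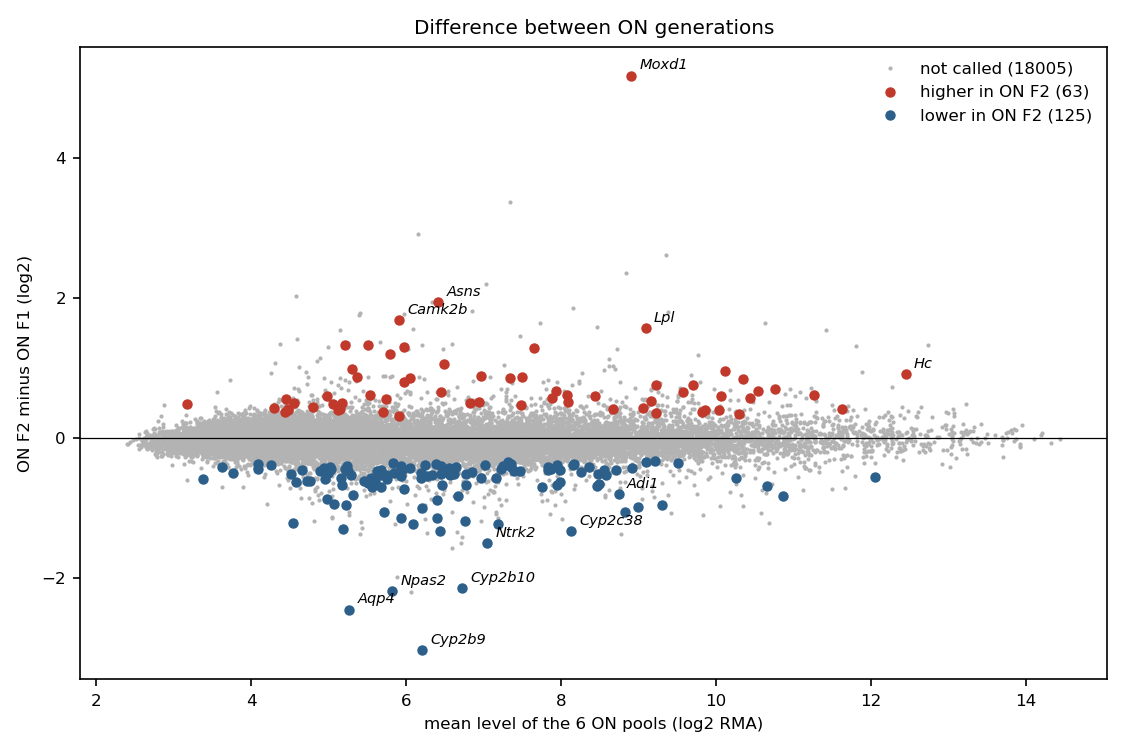
Difference between ON F2 and ON F1 pools (log2, vertical axis) against the mean level of the 6 ON pools (log2 RMA, horizontal axis), 1 point for each of 18193 genes. The 63 genes called higher in ON F2 are red and the 125 called lower are blue, with Moxd1 at 5.17 and Cyp2b9 at -3.04 as the extremes of the called genes.

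The largest rise was that of Moxd1, which encodes a monooxygenase related to dopamine beta-hydroxylase. Moxd1 stood at 11.37, 11.65 and 11.46 in the ON F2 pools, against 4.30, 6.36 and 8.29 in the ON F1 pools. The ON F2 pools lay close together, while the ON F1 pools were spread widely below them. The difference was 5.17 ± 0.79 (limma adjusted p = 0.0187), a 36.1-fold higher level in ON F2. Camk2b, a subunit of calcium/calmodulin-dependent kinase II, had 6.90, 6.24 and 7.08 in the ON F2 pools, against 4.45, 5.39 and 5.35 in the ON F1 pools, a difference of 1.68 ± 0.28 (limma adjusted p = 0.0227). Sult5a1, a sulfotransferase, had 8.40, 8.55 and 7.92 in the ON F2 pools, against 6.64, 7.47 and 6.90 in the ON F1 pools, a difference of 1.29 ± 0.19 (limma adjusted p = 0.0169). In both genes pool 7 was the lowest of the 6 pools. Fmn1, a formin that assembles actin filaments, was tight within both groups, at 5.71, 5.81 and 5.83 in the ON F2 pools, against 4.82, 4.82 and 4.77 in the ON F1 pools, and rose by 0.98 ± 0.21. Steap2, a metalloreductase for iron and copper, rose by 1.32 ± 0.25 (1.99 with the clock score included), and As3mt, which methylates arsenic, by 1.06 ± 0.21. Lifr, a receptor of leukemia inhibitory factor, rose by 0.96 ± 0.19, and Flcn (folliculin), which takes part in amino acid signalling to mTORC1, by 0.88 ± 0.17. Gdap10 and Gm4788 rose by 1.33 ± 0.28 and 1.20 ± 0.17. For these last 7 genes the limma adjusted p lay between 0.0118 and 0.0458. Among them the ON F1 means of Fmn1, Steap2 and Gdap10, at 4.81, 4.55 and 4.84, were dim. Gm4788 kept its call without any 1 of the 12 pools and Moxd1 lost its call without pool 13 or 14. Camk2b lost its call without pool 13 or 7 and Sult5a1 lost its call without pool 13, 14 or 7. Flcn lost its call without pool 13, 14, 15, 7, 8, 10 or 11. Steap2 lost its call without pool 13, 14, 15, 7, 8, 11 or 6. As3mt and Lifr lost their calls without pool 13, 14, 7, 8, 10, 11, 12, 4 or 6. Fmn1 lost its call without pool 13, 14, 15, 7, 8, 9, 11, 4 or 6. Gdap10 lost its call without pool 13, 14, 7, 8, 10, 11, 12, 4, 5 or 6.

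Genes that fell most, apart from the cytochromes P450 described below, had varied roles. Aqp4, a water channel, had 3.69, 3.72 and 4.69 in the ON F2 pools, against 6.95, 5.89 and 6.62 in the ON F1 pools. Every ON F2 pool lay below every ON F1 pool, and the difference was -2.46 ± 0.28 (limma adjusted p = 0.00405). The ON F2 mean of 4.03 is dim, so the difference may understate the fall. Clic5, a chloride intracellular channel protein, stood at 4.42, 4.75 and 4.44 in the ON F2 pools, against 5.71, 6.07 and 5.74 in the ON F1 pools, a difference of -1.31 ± 0.13 (limma adjusted p = 0.0031). Its ON F2 mean of 4.54 is dim too. Mtnr1a, a melatonin receptor, had 5.70, 5.70 and 6.07 in the ON F2 pools, against 6.87, 7.00 and 7.03 in the ON F1 pools, a difference of -1.14 ± 0.19 (limma adjusted p = 0.0247). Both groups were tight for Clic5 and Mtnr1a and did not overlap. Slc34a2, a sodium-phosphate cotransporter, fell (-1.34 ± 0.23), as did Cda, cytidine deaminase (-1.23 ± 0.20). Igfbp5, a binding protein of insulin-like growth factors, fell (-1.23 ± 0.23), as did Pls1, an actin-bundling plastin (-1.15 ± 0.16). Stap1, a signalling adaptor of blood cells, and Olfm3, an olfactomedin, were lower in ON F2 by the same test (-1.06 ± 0.15 for Stap1 and -1.19 ± 0.15 for Olfm3). These 6 genes had limma adjusted p-values between 0.00981 and 0.0345. Aqp4, Clic5 and Olfm3 kept their calls without any 1 of the 12 pools and Pls1 lost its call without pool 7. Stap1 lost its call without pool 13 or 7 and Mtnr1a, Slc34a2 and Cda lost their calls without pool 13, 14 or 7. Igfbp5 lost its call without pool 13, 14, 7, 10 or 4.

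**Figure D2:**
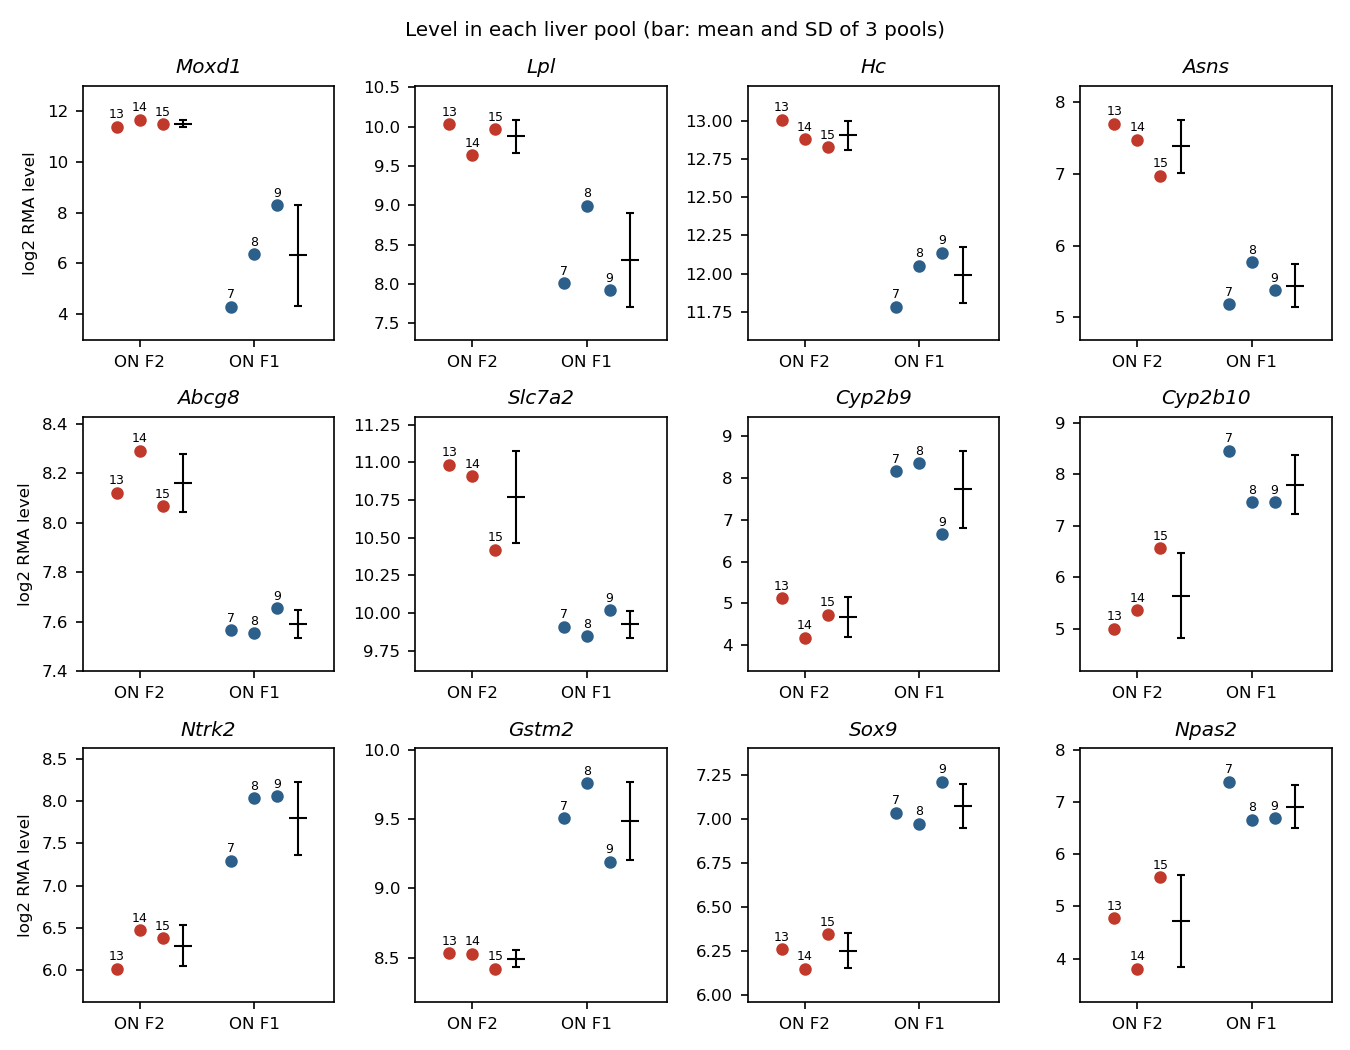
Log2 RMA level of 12 called genes in each pool, with ON F2 pools (red) left of ON F1 pools (blue), pool numbers above the points, and the mean and SD of 3 pools in black. In all 12 panels the 3 ON F2 pools lie outside the range of the 3 ON F1 pools. The vertical axes differ between genes and do not start at 0.

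Among 20 measured targets of CAR and PXR, 3 fell in ON F2 and 0 rose, beside 0.687% of all genes called lower and 0.346% called higher. The same shares of all genes are the background for the list counts that follow. The list median of the CAR and PXR targets was -0.29 beside -0.03 over all genes. Cyp2b9, a cytochrome P450 that is female-biased in mouse liver, stood at 5.12, 4.18 and 4.74 in the ON F2 pools, against 8.16, 8.34 and 6.66 in the ON F1 pools. The difference was -3.04 ± 0.49 (limma adjusted p = 0.0214), with a dim ON F2 mean of 4.68. Pools 7 and 8 were the highest, and pool 9 lay between them and the ON F2 pools. Cyp2b10, the classical CAR target of mouse liver, had 5.00, 5.36 and 6.57 in the ON F2 pools, against 8.46, 7.46 and 7.46 in the ON F1 pools, a difference of -2.15 ± 0.42 (limma adjusted p = 0.0398). Here pool 15 was the highest ON F2 pool and still lay below every ON F1 pool. Abcc3, an exporter of conjugates on the blood side of hepatocytes, had 8.30, 9.04 and 9.11 in the ON F2 pools, against 9.90, 9.82 and 9.63 in the ON F1 pools, a difference of -0.97 ± 0.19 (limma adjusted p = 0.0398). Cyp2c55, the fourth by p-value, was not called (-0.61 ± 0.17, limma adjusted p = 0.0957), nor were the other members of the list. Cyp2b9 lost its call without pool 14 or 7 and Cyp2b10 lost its call without pool 13, 14, 7, 8, 11, 12, 4 or 6. Abcc3 lost its call without pool 13, 14, 7, 8, 10, 11, 12 or 4. With the clock score included, the difference was -1.93 for Cyp2b9, -1.07 for Cyp2b10 and -0.92 for Abcc3.

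Cyp2b9 and Cyp2b10 are close relatives, and their promoters, from 250 bases before to 50 bases after the transcription start in RefSeq annotation of GRCm38.p6, are shown because both genes fell together. The Cyp2b9 window is chr7:26173159-26173458 and the Cyp2b10 window chr7:25897408-25897707, both on the plus strand, given 5′ to 3′. Over 289 aligned positions 223 bases were identical (77.2%). Capitals mark the 2 identical runs of at least 12 bases, of which the longest has 14, and the run at the 3′ end lies after the transcription start.
Cyp2b9: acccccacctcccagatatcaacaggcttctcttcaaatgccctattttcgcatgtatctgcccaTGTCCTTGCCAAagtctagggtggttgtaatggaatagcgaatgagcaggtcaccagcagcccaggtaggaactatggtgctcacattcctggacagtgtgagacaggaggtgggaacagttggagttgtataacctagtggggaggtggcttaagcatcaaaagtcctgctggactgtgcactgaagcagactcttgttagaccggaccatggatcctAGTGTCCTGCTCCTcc
Cyp2b10: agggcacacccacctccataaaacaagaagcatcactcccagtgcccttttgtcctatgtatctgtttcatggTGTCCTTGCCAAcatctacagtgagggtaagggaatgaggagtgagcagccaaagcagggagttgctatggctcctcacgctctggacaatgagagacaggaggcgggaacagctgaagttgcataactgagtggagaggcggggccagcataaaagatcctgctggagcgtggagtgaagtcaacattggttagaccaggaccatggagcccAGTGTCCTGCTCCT
Each gene was read at its own probe set, and cross-hybridisation between such relatives was not tested.

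Beyond these targets, 2 of 22 other cytochromes P450 fell and 0 rose, with a list median of 0.03, or 0.00 without pool 9 and 0.07 without pool 13. Cyp2c38 had 7.10, 7.51 and 7.76 in the ON F2 pools, against 8.96, 9.02 and 8.38 in the ON F1 pools, a difference of -1.33 ± 0.24 (limma adjusted p = 0.0305). Cyp2c39, its neighbour in sequence, had 8.32, 8.19 and 8.36 in the ON F2 pools, against 9.59, 9.45 and 9.00 in the ON F1 pools, a difference of -1.06 ± 0.22 (limma adjusted p = 0.0458). In both genes the ON F2 pools lay together below all ON F1 pools. Cyp2c54 and Cyp2c37 of the same subfamily were not called, at -0.75 ± 0.24 and -0.60 ± 0.21. Of 19 glutathione S-transferases, which couple glutathione to reactive compounds, 1 fell and 17 had a negative difference, with a list median of -0.24 that was -0.11 without ON F2 pool 13. The called member, Gstm2, had 8.53, 8.53 and 8.42 in the ON F2 pools, against 9.51, 9.76 and 9.19 in the ON F1 pools, a difference of -0.99 ± 0.16 (limma adjusted p = 0.0214). Among 18 genes of the NRF2 antioxidant response 0 fell and 0 rose, and Nfe2l2, which encodes NRF2 itself, stood at -0.56 ± 0.14 (limma adjusted p = 0.0658). Gstm2 lost its call without pool 13, 14 or 7 and Cyp2c38 lost its call without pool 13, 14, 7 or 8. Cyp2c39 lost its call without pool 13, 14, 15, 7, 8, 10, 11, 12 or 4. Adjusted for the clock score, Cyp2c38 differed by -0.88 and Cyp2c39 by -0.60.

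The male-biased liver genes that passed the test were higher in ON F2 and the female-biased ones lower. Of 18 male-biased genes 2 rose and 0 fell, beside 0.346% of all genes called higher. Their list median was 0.31, with 14 positive and 4 negative differences, the lowest at -0.72. Of 18 female-biased genes 3 fell and 0 rose, beside 0.687% of all genes called lower. Their list median was -0.16, with 12 negative and 6 positive differences. Of these female-biased genes 13 were dim, with a mean below 5 over the 12 arrays. Both medians held their sign without any 1 of the ON pools, at 0.16 without pool 7 for the male-biased and -0.08 without pool 8 for the female-biased genes. The male-biased genes that rose were Moxd1 and Susd4, a regulator of complement. Susd4 had 8.83, 8.76 and 8.62 in the ON F2 pools, against 8.13, 8.03 and 8.28 in the ON F1 pools, a difference of 0.59 ± 0.10 (limma adjusted p = 0.0247). Hsd3b2, a steroid dehydrogenase, and Mup3, a major urinary protein, had all ON F2 pools above all ON F1 pools without passing, at 0.69 ± 0.16 (limma adjusted p = 0.0627) and 0.44 ± 0.12 (limma adjusted p = 0.0789). The female-biased genes that fell were Cyp2b9, Ntrk2 and Fmo1. Ntrk2, a receptor of neurotrophins, had 6.02, 6.47 and 6.37 in the ON F2 pools, against 7.30, 8.03 and 8.06 in the ON F1 pools, a difference of -1.51 ± 0.21 (limma adjusted p = 0.0118), and 5 of its 8 probe sets had the same sign. Fmo1, a flavin-containing monooxygenase, had 9.88, 10.02 and 10.01 in the ON F2 pools, against 10.66, 10.61 and 10.38 in the ON F1 pools, a difference of -0.58 ± 0.09 (limma adjusted p = 0.0204). Of 15 genes of the growth hormone and IGF axis, 0 rose and 0 fell, with Igfbp2 at 0.70 ± 0.21 and Igf1 at -0.12 ± 0.12. Ntrk2 kept its call without any 1 of the 12 pools and Fmo1 lost its call without pool 13, 14 or 7. Susd4 lost its call without pool 13, 14, 7 or 8. With the clock score as a covariate Susd4 differed by 0.39.

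In lipid metabolism Lpl rose while Mogat1 and Plin2 fell. Lpl, lipoprotein lipase, which releases fatty acids from circulating triglycerides and is normally low in adult hepatocytes, stood at 10.03, 9.63 and 9.96 in the ON F2 pools, against 8.01, 9.00 and 7.92 in the ON F1 pools. All ON F2 pools were above pool 8, the highest ON F1 pool, and the difference was 1.57 ± 0.25 (limma adjusted p = 0.0214), a 2.97-fold higher level in ON F2. Of 13 genes of fatty acid uptake and PPARG action 1 rose (Lpl) and 1 fell, with a list median of -0.09, or -0.21 without pool 15 and -0.01 without pool 7. The one that fell was Mogat1, a monoacylglycerol acyltransferase, at 3.72, 3.90 and 4.18 in the ON F2 pools, against 5.83, 4.79 and 4.84 in the ON F1 pools, a difference of -1.22 ± 0.25 (limma adjusted p = 0.0409). Its ON F2 mean of 3.93 is dim. Pparg and the fatty acid translocase Cd36 were not called, at -0.58 ± 0.18 and -0.59 ± 0.24. Of 18 genes of the lipid droplet and lipolysis 1 fell and 0 rose. Plin2, the droplet coat protein perilipin 2, had 11.67, 11.57 and 12.05 in the ON F2 pools, against 12.35, 12.33 and 12.32 in the ON F1 pools, a difference of -0.57 ± 0.12 (limma adjusted p = 0.0485). Its relative Plin5 also had all ON F2 pools below all ON F1 pools and was not called (-0.64 ± 0.15, limma adjusted p = 0.0631). Lpl lost its call without pool 13 or 7 and Mogat1 lost its call without pool 13, 14, 7, 10, 11, 12, 4 or 6. Plin2 lost its call without pool 13, 14, 7, 8, 9, 10, 11, 12, 4 or 6. Fitted with the clock score, Mogat1 differed by -0.75 and Plin2 by -0.22.

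Fatty acid synthesis and oxidation enzymes had no called member. Of 23 synthesis genes 18 had a negative difference, with a list median of -0.27 that was -0.01 without ON F1 pool 7. The list stood at -0.49, -0.33 and 0.00 in the ON F2 pools, against 0.46, -0.31 and -0.23 in the ON F1 pools, as the median over genes of the level minus the ON F1 mean. Pool 7 was the highest of the 6, and the other ON F1 pools lay among the ON F2 pools. Elovl6, a fatty acid elongase, shows this: it had 9.28, 9.60 and 9.82 in the ON F2 pools, against 11.86, 9.83 and 9.93 in the ON F1 pools (-0.98 ± 0.40, limma adjusted p = 0.214). Fasn, fatty acid synthase, differed by -0.42 ± 0.32, and by 0.04 without pool 7. Of 21 genes of fatty acid oxidation 19 had a negative and 2 a positive difference, beside 43.4% positive over all genes. In 11 of them all ON F2 pools lay below all ON F1 pools, beside 14.1% of all genes, and the list median was -0.18. The median lay between -0.21 and -0.13 without 1 ON pool. Those nearest the threshold were Acot2 and Eci1, a thioesterase and an isomerase of mitochondria, at -1.06 ± 0.26 (limma adjusted p = 0.0697) and -0.36 ± 0.09 (limma adjusted p = 0.078). Among 16 PPARA targets Plin2 was the called gene, and Vnn1 and Pdk4 had all ON F2 pools below all ON F1 pools without passing, at -1.19 ± 0.29 (limma adjusted p = 0.0709) and -1.99 ± 0.50 (limma adjusted p = 0.073). Cholesterol synthesis (19 genes, median 0.08, or -0.06 without pool 8 and 0.21 without pool 15) and lipoprotein genes (17 genes, median 0.02, or -0.05 without pool 13 and 0.04 without pool 8) had 0 called members.

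Glucose genes differed in opposite directions without passing the test. Pck1, the cytosolic enzyme that commits carbon to glucose production, had 12.08, 11.63 and 10.66 in the ON F2 pools, against 9.17, 9.88 and 10.39 in the ON F1 pools, and Pdk4, the kinase that closes pyruvate dehydrogenase, had 4.30, 4.30 and 6.06 in the ON F2 pools, against 7.56, 6.44 and 6.65 in the ON F1 pools. Neither gene overlapped between the generations, Pck1 being higher and Pdk4 lower in every ON F2 pool. Their differences were 1.64 ± 0.39 (limma adjusted p = 0.0635) and -1.99 ± 0.50 (limma adjusted p = 0.073). Ppp1r3c, which targets protein phosphatase to glycogen, was at -0.79 ± 0.19 (limma adjusted p = 0.0657), and G6pc, the catalytic subunit of glucose-6-phosphatase, at -0.44 ± 0.16. The lists of glucose output (18 genes, median -0.11, or -0.19 without pool 8 and -0.06 without pool 7), sugar use (11 genes, median -0.09, or -0.19 without pool 8 and -0.05 without pool 7) and insulin signalling (18 genes, median 0.02, or -0.02 without pool 8 and 0.09 without pool 15) had 0 called members. Insr, Irs1 and Irs2 differed by 0.17 ± 0.10, -0.16 ± 0.09 and 0.00 ± 0.25.

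Amino acid metabolism showed a rise in a synthetic enzyme and in a transporter. Asns, asparagine synthetase, a gene induced by ATF4 when amino acids are short, stood at 7.70, 7.48 and 6.98 in the ON F2 pools, against 5.18, 5.77 and 5.38 in the ON F1 pools. The difference was 1.94 ± 0.35 (limma adjusted p = 0.0332), a 3.84-fold higher level in ON F2, with the 2 groups well apart. It was the only called member among 21 genes of the ATF4 response, whose median was -0.06, or -0.12 without pool 7 and 0.00 without pool 8. Slc7a2, a transporter of cationic amino acids, had 10.98, 10.91 and 10.42 in the ON F2 pools, against 9.91, 9.85 and 10.02 in the ON F1 pools, a difference of 0.85 ± 0.18 (limma adjusted p = 0.0439). Among 22 amino acid transporters it was the one that rose, 16 had a positive difference and the median was 0.16, or 0.10 without pool 7. Slc1a5, Slc3a1 and Slc38a2 had all ON F2 pools above all ON F1 pools and were not called, at 0.38 ± 0.10, 0.79 ± 0.21 and 0.56 ± 0.14. Rimklb, which joins glutamate to N-acetylaspartate, had 5.06, 4.99 and 5.04 in the ON F2 pools, against 5.45, 5.46 and 5.41 in the ON F1 pools, a difference of -0.41 ± 0.07 (limma adjusted p = 0.0214). Rimklb lost its call without pool 13, 14 or 7 and Asns lost its call without pool 13, 14, 7, 9, 10 or 11. Slc7a2 lost its call without pool 13, 14, 7, 8, 9, 10, 11, 12, 5 or 6. With the clock score included, Asns differed by 1.00 and Slc7a2 by 0.39.

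Adi1, an enzyme of the methionine salvage pathway, which returns methylthioadenosine to methionine, fell with almost no spread within the groups. It stood at 8.31, 8.34 and 8.38 in the ON F2 pools, against 9.17, 9.10 and 9.16 in the ON F1 pools, a difference of -0.80 ± 0.09 (limma adjusted p = 0.00405), and 2 of its 3 probe sets had the same sign. It was the called member among 19 genes of methionine and one-carbon metabolism, of which 15 had a negative difference (median -0.11). Next by p-value, Mthfd1, an enzyme of folate metabolism, and Dmgdh, dimethylglycine dehydrogenase, were not called, at -0.32 ± 0.10 and -0.23 ± 0.07. Adi1 kept its call without any 1 of the 12 pools and with the 6 ON arrays alone.

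Among 18 genes of bile acid synthesis and canalicular transport, 1 rose and 0 fell, with a median of 0.14, or 0.08 without pool 9. Abcg8, which with ABCG5 pumps sterols into bile, had 8.12, 8.29 and 8.07 in the ON F2 pools, against 7.57, 7.55 and 7.65 in the ON F1 pools, a difference of 0.57 ± 0.11 (limma adjusted p = 0.0398). Its partner Abcg5 had 9.36, 9.86 and 9.27 in the ON F2 pools, against 9.06, 8.60 and 8.79 in the ON F1 pools and missed the threshold (0.68 ± 0.16, limma adjusted p = 0.0609). Both genes of the transporter had every ON F2 pool above every ON F1 pool. Abcb11, the bile salt export pump, was at 0.57 ± 0.14 (limma adjusted p = 0.0683), and Cyp8b1, which sets the cholic acid share of bile acids, at -0.43 ± 0.14. Abcg8 lost its call without pool 13, 14, 7, 8, 9, 10, 11 or 12.

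**Figure D3:**
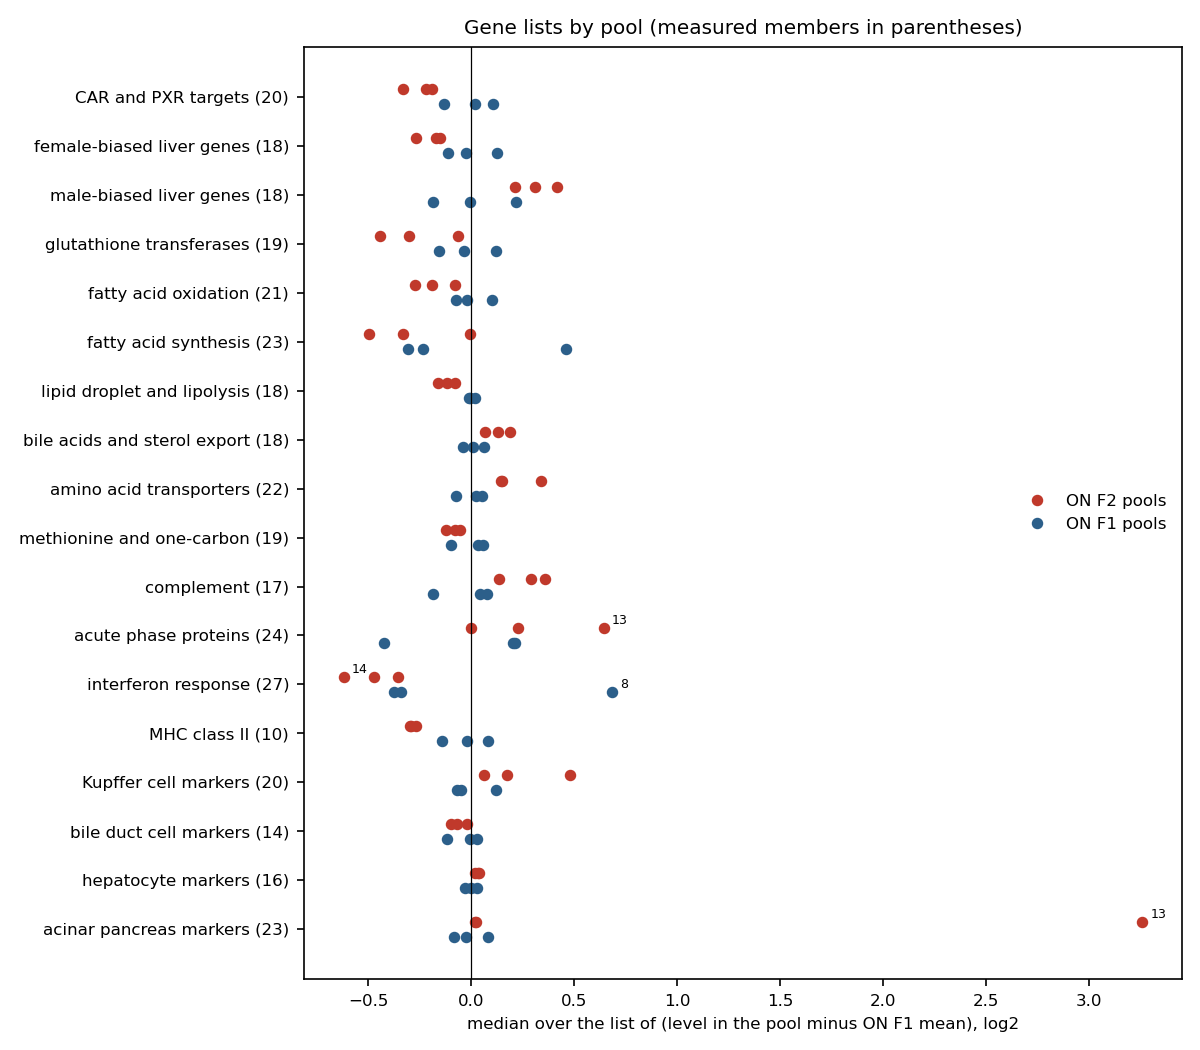
Median over each gene list of the level in a pool minus the ON F1 mean (log2, horizontal axis), 1 point per pool, with ON F2 pools (red) drawn above ON F1 pools (blue) and the number of measured genes in parentheses. Most lists lie within 0.5 of 0, while acinar pancreas markers in ON F2 pool 13 reach 3.26 and interferon response genes in ON F1 pool 8 reach 0.68.

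Of 17 complement components made by liver 1 rose and 0 fell, 16 had a positive difference and the median was 0.19, or 0.32 without pool 15. Hc, which encodes complement C5, had 13.01, 12.88 and 12.83 in the ON F2 pools, against 11.78, 12.05 and 12.14 in the ON F1 pools, a difference of 0.91 ± 0.10 (limma adjusted p = 0.00391). Every ON F2 pool lay above every ON F1 pool. C2, of the classical and lectin pathways, and C8b, of the membrane attack complex, had no overlap between generations and were not called, at 0.40 ± 0.09 (limma adjusted p = 0.0603) and 0.63 ± 0.17 (limma adjusted p = 0.0819). Fcna, ficolin A, a recognition lectin made by macrophages, had 8.16, 7.58 and 8.03 in the ON F2 pools, against 7.12, 7.03 and 7.00 in the ON F1 pools, a difference of 0.88 ± 0.15 (limma adjusted p = 0.0247). Acute phase proteins had 0 called of 24, and their median of 0.29 was 0.04 without ON F1 pool 7, the pool with the lowest list level (-0.42). Hc kept its call without any 1 of the 12 pools and Fcna lost its call without pool 13 or 7.

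Interferon response genes had 0 called of 27, although 25 had a negative difference and the median was -0.40. As a median over genes relative to the ON F1 mean the list stood at -0.35, -0.62 and -0.47 in the ON F2 pools, against -0.34, 0.68 and -0.38 in the ON F1 pools. ON F1 pool 8 stood alone, and without it the median was -0.11 with 18 negative differences. Oasl1, an oligoadenylate synthetase-like protein, had 6.44, 6.39 and 6.91 in the ON F2 pools, against 7.22, 8.04 and 7.03 in the ON F1 pools (-0.85 ± 0.23, limma adjusted p = 0.0811), and Rsad2 (viperin) had 6.90, 6.62 and 6.73 in the ON F2 pools, against 7.32, 8.46 and 7.33 in the ON F1 pools (-0.96 ± 0.29, limma adjusted p = 0.11). Pool 8 was the highest in both genes. MHC class II genes, which present antigen to helper T cells, had 1 called lower of 10, with a median of -0.34 (-0.20 without pool 7). H2-Aa had 6.55, 6.73 and 6.76 in the ON F2 pools, against 7.37, 7.20 and 7.19 in the ON F1 pools, a difference of -0.57 ± 0.10 (limma adjusted p = 0.0247). H2-Ea and H2-Ab1 had every ON F2 pool below every ON F1 pool without passing, at -0.48 ± 0.12 (limma adjusted p = 0.0762) and -0.45 ± 0.11 (limma adjusted p = 0.077). H2-Aa lost its call without pool 13, 14 or 7.

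Markers of other cell types were measured because whole liver holds them, and in bulk tissue fewer cells of a type and less RNA per cell cannot be told apart. Hepatocyte markers (16 genes) had 0 called members and a median of 0.02, or 0.00 without pool 8. Kupffer cell markers had 0 called of 20, with 18 positive differences and a median of 0.20 (0.11 without ON F2 pool 13). Vsig4, a complement receptor of Kupffer cells, had 8.35, 7.99 and 8.11 in the ON F2 pools, against 7.45, 7.53 and 7.39 in the ON F1 pools (0.70 ± 0.17, limma adjusted p = 0.0733), so that all ON F2 pools lay above all ON F1 pools in a gene that did not pass. Of 14 bile duct markers 1 fell: Sox9, a transcription factor of duct cells and of hepatocytes next to the portal tract, with 6.26, 6.15 and 6.35 in the ON F2 pools, against 7.04, 6.97 and 7.21 in the ON F1 pools, a difference of -0.83 ± 0.13 (limma adjusted p = 0.0187). No other duct marker was called, with Krt7 and Pkhd1 at -0.20 ± 0.10 and -0.88 ± 0.27 and the list median at -0.10, or 0.01 without pool 9. Of 16 skeletal muscle markers 1 fell, Tnnt1 (-0.59 ± 0.12, limma adjusted p = 0.0433), with a list median of -0.03, or -0.09 without pool 15 and 0.00 without pool 8. The ON F2 mean of Tnnt1, 4.66, is dim, and 14 of the 16 muscle markers had a dim mean over the 12 arrays. Exocrine pancreas markers had 0 called of 23 and a median of 0.93, which was 0.01 without ON F2 pool 13. The list stood at 3.26, 0.02 and 0.02 in the ON F2 pools, against -0.08, 0.08 and -0.02 in the ON F1 pools, relative to the ON F1 mean. Cel, a pancreatic lipase, had 9.03, 4.87 and 4.98 in the ON F2 pools, against 4.25, 4.67 and 4.61 in the ON F1 pools, so pool 13 alone was high, and the part of this tissue in other results was tested only by leaving pool 13 out. Lists of B cells, T and NK cells, neutrophils, stellate cells, sinusoidal endothelium, pancreatic islets, adipocytes and erythroid cells had 0 called members. Many of these markers had a dim mean over the 12 arrays: 8 of 12 for B cells, 10 of 13 for T and NK cells, 8 of 10 for neutrophils and 5 of 7 for islets. For such lists 0 calls say little about the cells. Sox9 lost its call without pool 13, 14 or 7. Tnnt1 lost its call without pool 13, 14, 15, 7, 8, 11, 12, 4, 5 or 6. Adjusted for the clock score, Sox9 differed by -0.54.

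Clock genes differed in opposite directions by arm between the generations, with 1 gene past the threshold. In the driving (positive) arm and genes that peak with it, 1 of 7 genes fell, 6 had a negative difference, and the median was -0.91 (-0.58 without ON F2 pool 14). Npas2, a partner of ARNTL, had 4.78, 3.81 and 5.57 in the ON F2 pools, against 7.39, 6.66 and 6.69 in the ON F1 pools, a difference of -2.19 ± 0.41 (limma adjusted p = 0.035) with a dim ON F2 mean of 4.72. With the clock score in the fit, which Npas2 itself enters, the difference was -0.79. Arntl, the shared partner, had 6.80, 5.51 and 7.52 in the ON F2 pools, against 7.86, 7.65 and 7.75 in the ON F1 pools, and Clock, the alternative partner, differed by -0.33 ± 0.14. Cry1, a repressor whose peak falls near that of the driving arm, and Nfil3, a repressor of D-box genes, were at -1.16 ± 0.30 (limma adjusted p = 0.0783) and -0.91 ± 0.26 (limma adjusted p = 0.10). In the opposing (negative) arm 0 of 8 genes passed, 8 had a positive difference, and the median was 0.54. Without ON F2 pool 14 the median was 0.30, with 5 positive and 3 negative differences. Relative to the ON F1 mean this list stood at 0.72, 1.01 and -0.11 in the ON F2 pools, against 0.02, -0.09 and 0.03 in the ON F1 pools. ON F2 pool 15 thus lay below all ON F1 pools. Per3 had 6.42, 7.47 and 4.92 in the ON F2 pools, against 4.57, 4.46 and 4.53 in the ON F1 pools, and Nr1d2, which encodes REV-ERB beta, had 9.50, 9.69 and 8.55 in the ON F2 pools, against 7.13, 7.46 and 8.41 in the ON F1 pools. Their differences were 1.75 ± 0.52 (limma adjusted p = 0.107) and 1.58 ± 0.42 (limma adjusted p = 0.0808). Per1, Per2, Ciart and Nr1d1 differed by 0.90 ± 0.30, 0.21 ± 0.37, 0.49 ± 0.22 and 0.58 ± 0.34. Among 11 output genes 0 passed. Dbp, a rhythmic D-box activator, had 9.84, 10.71 and 6.54 in the ON F2 pools, against 5.40, 5.34 and 6.23 in the ON F1 pools (3.37 ± 1.16, limma adjusted p = 0.15), and its relative Tef had 9.28, 9.83 and 8.43 in the ON F2 pools, against 8.05, 7.96 and 8.13 in the ON F1 pools (1.13 ± 0.30, limma adjusted p = 0.0832). For Dbp pools 13 and 14 stood far above all others and pool 15 lay close to ON F1 pool 9. Npas2 lost its call without pool 13, 14, 7, 8, 10, 11, 12 or 6.

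**Figure D4:**
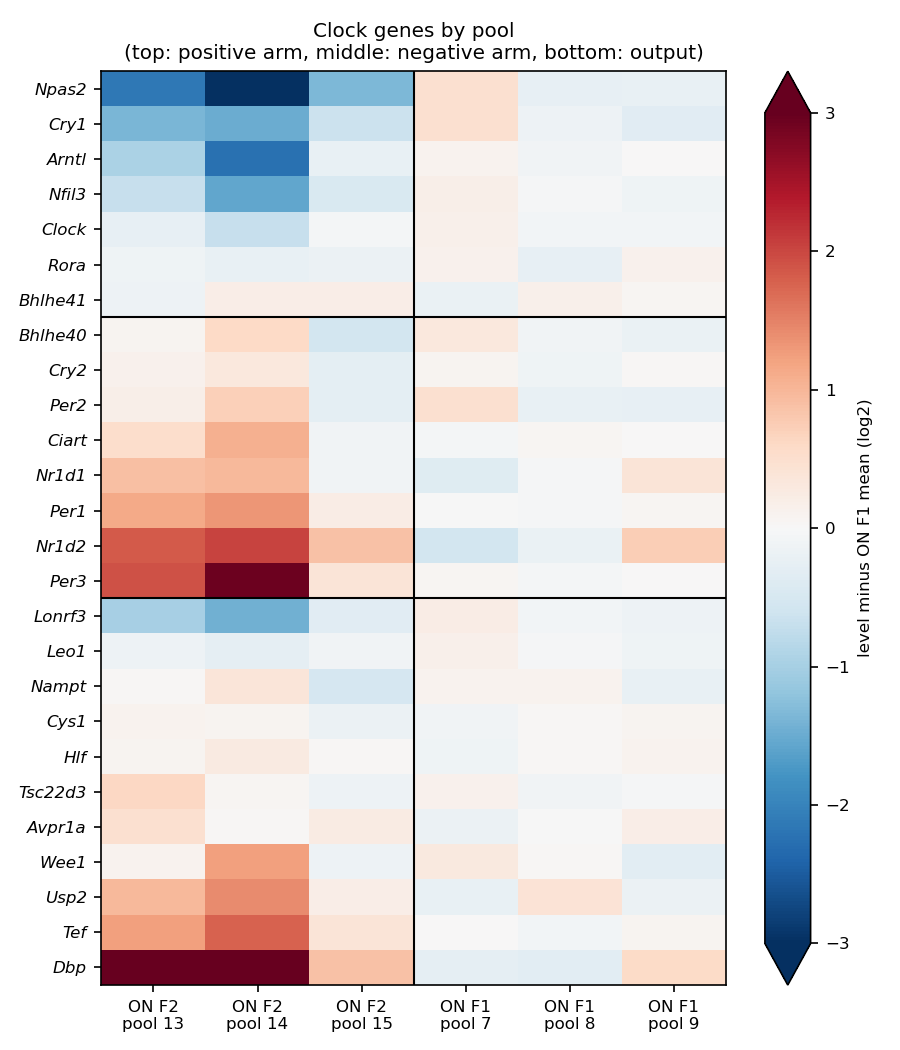
Level of clock genes in each pool minus the ON F1 mean of the gene (log2, colour, cut off at 3 in either direction), with ON F2 pools left of ON F1 pools, and the driving arm, the opposing arm and output genes in blocks that run down the page. ON F2 pools 13 and 14 have low Npas2 and Arntl and high Per3 and Dbp, while ON F2 pool 15 is closer to the ON F1 pools.

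The promoters of 4 of these genes (RefSeq, GRCm38.p6, 250 bases before to 50 bases after the start, first start listed) are shown with the motifs through which the loop is known to act. Both strands were searched for the E-box CACGTG, bound by CLOCK or NPAS2 with ARNTL, and the D-box TTATGNAA, bound by DBP, TEF and NFIL3. TNGGTCA was also searched. It is looser than the element bound by ROR and NR1D proteins, which has A or G in place of the N. No motif overlapped another in these windows. Of 32851 promoters of this length, 7.15% held the E-box, 3.385% the D-box and 11.0% TNGGTCA. Capitals mark the matches, which are descriptions and not shown sites. The TNGGTCA matches in Arntl and Per3 have T or C at the N, so none of them matches the ROR and NR1D element. Ciart (chr3:95882179-95882478, minus strand) had 3 E-boxes, Per3 (chr4:151044616-151044915, minus strand) had 2 D-boxes and 1 TNGGTCA, Arntl (chr7:113207215-113207514, plus strand) had 2 TNGGTCA, and Npas2 (chr1:39194022-39194321, plus strand) had 0 matches.
Ciart: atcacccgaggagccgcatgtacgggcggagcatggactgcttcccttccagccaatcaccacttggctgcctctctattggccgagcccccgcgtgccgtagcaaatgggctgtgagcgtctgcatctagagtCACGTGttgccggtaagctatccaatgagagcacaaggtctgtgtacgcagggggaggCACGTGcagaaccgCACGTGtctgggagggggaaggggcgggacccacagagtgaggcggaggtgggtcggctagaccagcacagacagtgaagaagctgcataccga
Per3: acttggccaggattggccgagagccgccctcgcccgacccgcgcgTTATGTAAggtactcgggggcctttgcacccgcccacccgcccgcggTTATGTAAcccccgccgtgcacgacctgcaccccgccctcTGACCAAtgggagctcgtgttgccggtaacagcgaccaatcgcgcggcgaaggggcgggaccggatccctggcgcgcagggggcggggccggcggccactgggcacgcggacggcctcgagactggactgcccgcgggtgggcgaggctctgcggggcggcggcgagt
Arntl: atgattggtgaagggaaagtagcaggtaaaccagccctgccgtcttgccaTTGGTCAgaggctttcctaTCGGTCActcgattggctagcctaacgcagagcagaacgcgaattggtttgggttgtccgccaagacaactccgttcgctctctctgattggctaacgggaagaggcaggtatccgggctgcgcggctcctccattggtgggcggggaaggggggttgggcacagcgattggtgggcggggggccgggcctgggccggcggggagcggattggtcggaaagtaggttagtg
Npas2: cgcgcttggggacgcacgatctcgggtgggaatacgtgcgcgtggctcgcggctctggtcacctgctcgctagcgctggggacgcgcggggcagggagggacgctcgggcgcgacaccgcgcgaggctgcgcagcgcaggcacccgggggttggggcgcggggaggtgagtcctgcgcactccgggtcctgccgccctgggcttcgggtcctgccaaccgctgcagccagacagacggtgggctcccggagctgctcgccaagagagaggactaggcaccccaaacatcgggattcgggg
Of the 28 genes on the clock lists 24 had a promoter in the RefSeq table, of which 6 held an E-box, 2 a D-box and 5 TNGGTCA.

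At the median the called genes differed by less with the clock score in the fit. With the score as a covariate the median of the adjusted over the unadjusted difference was 0.857 over the 188 genes, 180 of them had an unadjusted p under 0.05, and the median standard error was 0.138, against 0.0988 without it. The difference shrank by more than 1.5 times in 34 of the 188 and grew by more than that in 1, Steap2. The 188 genes were selected by the fit without the score on the same arrays. These figures therefore cannot show what the score does to genes at large. The score follows the group, so the part of the hour of collection in the differences cannot be told apart from that of generation. Among genes named above and not yet given with this covariate, Mtnr1a differed by -0.63, Slc34a2 by -0.65, Cda by -0.80, Gdap10 by 0.75 and Lifr by 0.53. Moxd1, Lpl and Aqp4 differed by 3.83, 1.75 and -1.80.

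Genes that write, remove or read DNA methylation and histone marks had 0 called of 24, with a median of -0.03, or -0.04 without pool 8 and 0.01 without pool 9. Dnmt3b, a de novo DNA methyltransferase, had 6.01, 5.71 and 6.51 in the ON F2 pools, against 6.84, 6.76 and 7.04 in the ON F1 pools, with every ON F2 pool below every ON F1 pool, and was at -0.80 ± 0.21 (limma adjusted p = 0.0807). Dnmt1, the maintenance enzyme, and Dnmt3a, the other de novo enzyme, differed by -0.06 ± 0.09 and -0.05 ± 0.21. Imprinted genes had 0 called of 25 (median 0.05, or 0.11 without pool 14), with Impact and Mirg nearest the threshold at 0.36 ± 0.08 (limma adjusted p = 0.0603) and 0.53 ± 0.14 (limma adjusted p = 0.0787). Of 17 cytosolic heat shock genes 1 fell, Bag3, a co-chaperone of HSP70, with 8.10, 8.11 and 8.27 in the ON F2 pools, against 8.83, 8.92 and 8.72 in the ON F1 pools, a difference of -0.66 ± 0.12 (limma adjusted p = 0.0332). Urea cycle (11 genes, median 0.08, or 0.05 without pool 14 and 0.14 without pool 8), immediate early (16 genes, 0.07, or -0.06 without pool 8 and 0.19 without pool 9) and glucocorticoid and metallothionein genes (18 genes, 0.22, or -0.07 without pool 13 and 0.51 without pool 15) had 0 called members. Endoplasmic reticulum chaperones (24 genes, median -0.08, or -0.21 without pool 7 and 0.00 without pool 9), proteasome subunits (30 genes, -0.02, or -0.05 without pool 15 and -0.01 without pool 14), cytosolic ribosomal proteins (26 genes, 0.06, or 0.00 without pool 8 and 0.12 without pool 7), respiratory chain subunits (35 genes, -0.09, or -0.14 without pool 15 and -0.05 without pool 7), hepatocyte transcription factors (19 genes, 0.09, or 0.03 without pool 8) and cell cycle genes (25 genes, 0.11, or -0.01 without pool 9) had 0 called members. A dim mean over the 12 arrays was found in 12 of the 25 imprinted and 14 of the 25 cell cycle genes. Bag3 lost its call without pool 13, 14, 7, 8 or 4.

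Over all lists together, 876 genes were measured and 23 were called (2.63%, beside 1.03% of all genes), 7 higher and 16 lower in ON F2. Of a panel of 24 metabolic and epigenetic genes 4 were called: Moxd1 and Lpl higher, Cyp2b9 and Rimklb lower. The 20 panel genes that were not called differed by -0.80 (Dnmt3b) to 1.64 (Pck1). These lists and the panel were chosen with earlier results of these data known, so their shares are not independent evidence.

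Between the IUGR generations, whose pools share no array with the ON groups, 4 of 18193 genes were called (0.022%), with 2085 at an unadjusted p under 0.05. Of the 188 genes called between ON generations, 151 had the same sign in IUGR F2 minus IUGR F1, 46 of the 63 that rose and 105 of the 125 that fell, beside 62.4% of all genes. The median absolute difference of the 188 was 0.175 between IUGR generations, and 48 of them differed there by at least 50% of the ON difference. Moxd1 had 10.77, 11.02 and 11.44 in the IUGR F2 pools, against 8.65, 10.98 and 8.79 in the IUGR F1 pools, a difference of 1.60 ± 0.79 that was not called. Cyp2b9 differed by -1.22 ± 0.49, Lpl by -0.29 ± 0.25 and Hc by 0.08 ± 0.10 between IUGR generations. Lpl had 9.51, 9.22 and 9.64 in the IUGR F2 pools, against 9.60, 9.50 and 10.14 in the IUGR F1 pools. Hc had 12.63, 12.69 and 12.65 in the IUGR F2 pools, against 12.51, 12.72 and 12.49 in the IUGR F1 pools. For Lpl and Hc every IUGR pool of either generation lay above every ON F1 pool. The test of the difference between the lineages did not pass for Moxd1, Cyp2b9, Lpl or Hc (limma adjusted p between 0.157 and 0.575). Adi1, Dctn6 and Sppl2a were called in both lineages, Adi1 in opposite directions, at -0.80 in ON and 0.81 in IUGR. Dctn6, a dynactin subunit, was at 0.47 in ON and 0.58 in IUGR, and only 1 of its 2 probe sets rose between ON generations. Sppl2a, an intramembrane protease, was at 0.34 in ON and 0.53 in IUGR. The 4 calls between IUGR generations, Adi1 among them, became 0 without pool 10, 4, 5 or 6 and 0 with the actin ratio as a covariate. Between ON generations Sppl2a was called in 0 and Dctn6 in 9 of the 12 fits that leave out 1 pool. The fourth gene called between IUGR generations was Mtif2, a mitochondrial translation factor, at 0.64 there and -0.07 in ON. These genes were chosen after their values were seen.

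The lineage by generation difference passed in 3 genes of 18193 (0.0165%, with 7.69% at an unadjusted p under 0.05), Adi1, Mmd2 and Aqp4, whose differences had opposite signs in the lineages. Adi1 had 9.02, 8.97 and 9.30 in the IUGR F2 pools, against 8.18, 8.32 and 8.36 in the IUGR F1 pools, a difference of 0.81 ± 0.09. ON F1 and IUGR F2 pools were high and ON F2 and IUGR F1 pools low, and the ON difference minus the IUGR difference was -1.61 ± 0.13 (limma adjusted p = 0.000338). Mmd2, a membrane protein of the PAQR family, had 6.79, 6.35 and 6.71 in the ON F2 pools, against 5.40, 5.11 and 5.46 in the ON F1 pools, a difference of 1.29 ± 0.14 (limma adjusted p = 0.00391). In the other lineage it had 5.29, 5.38 and 5.62 in the IUGR F2 pools, against 5.97, 6.06 and 5.72 in the IUGR F1 pools. The ON difference minus the IUGR difference was 1.78 ± 0.20 (limma adjusted p = 0.00688), and 2 of 3 Mmd2 probe sets had the same sign between ON generations. Aqp4 had 5.45, 5.35 and 5.13 in the IUGR F2 pools, against 5.10, 4.69 and 4.60 in the IUGR F1 pools, and the ON difference minus the IUGR difference was -2.97 ± 0.40 (limma adjusted p = 0.0358). Adi1 kept this call without any 1 of the 12 pools, as did Mmd2, while Aqp4 kept it without pool 8 or pool 15 and lost it without any other. With probe sets averaged per gene the value was 1.20 for Mmd2 (limma adjusted p = 0.131) and -1.06 for Aqp4 (limma adjusted p = 0.166). With the clock score it was 1.92 for Mmd2 (limma adjusted p = 0.123) and -2.11 for Aqp4 (limma adjusted p = 0.916).

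**Figure D5:**
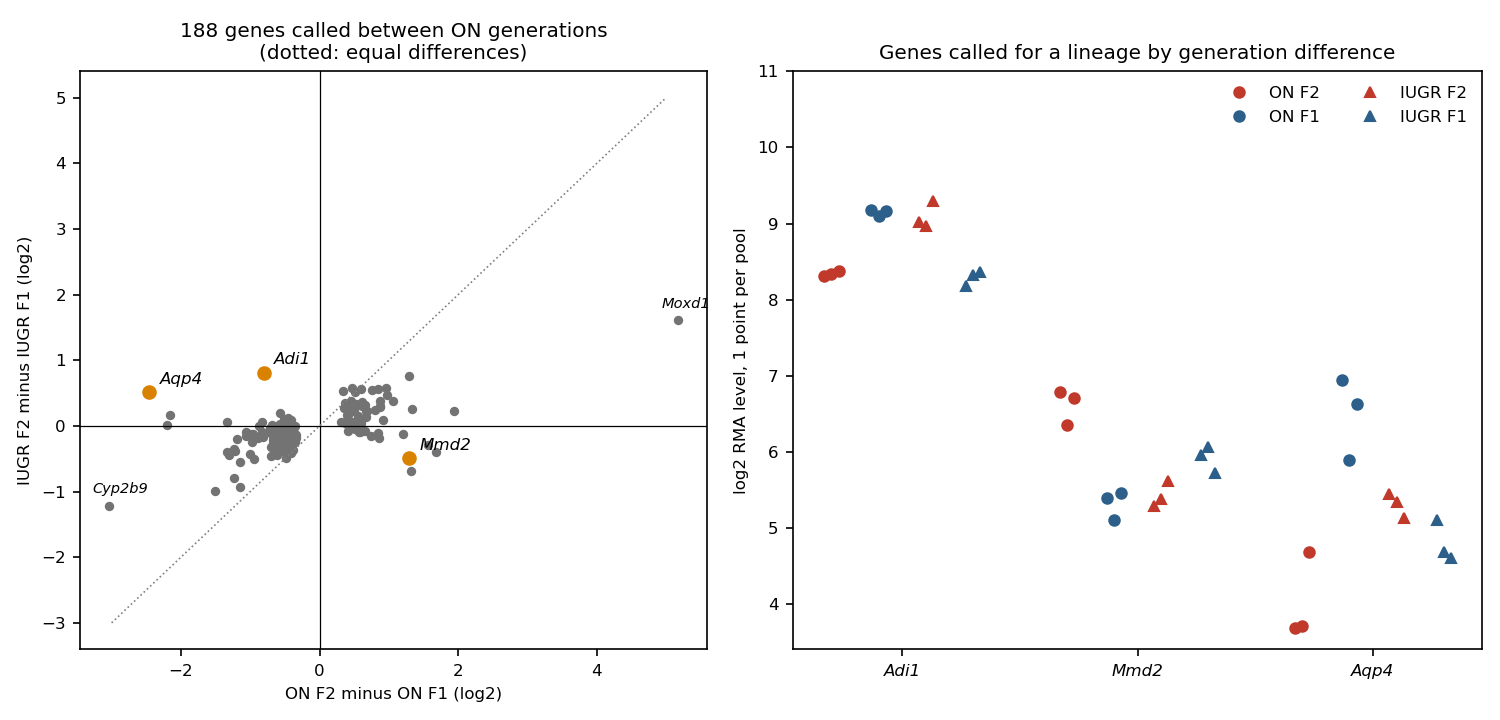
Left, difference between IUGR generations (log2, vertical axis) against that between ON generations (horizontal axis) for the 188 genes called between ON generations, with equal differences on the dotted line and the 3 genes called for a lineage by generation difference in orange. Right, their log2 RMA level in each pool (circles for ON, triangles for IUGR, red for F2, blue for F1). Adi1 is high in ON F1 and IUGR F2 pools and low in ON F2 and IUGR F1 pools.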

How the data were processed

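Whole-liver RNA of pooled adult male mice was hybridised to Affymetrix mouse genome arrays. The deposited values are log2 expression levels made by the authors with RMA, per the submitters' processing notes, whose version and settings are not given in the sources used here. RMA normalizes arrays together, so a level depends on all 15 arrays, the control arrays included. Of 45101 probe sets, 64 controls were left out, 34945 had 1 gene symbol, 932 several and 9160 none in GEO's platform annotation. Entrez identifiers of 34741 probe sets matched the RefSeq table, which changed 0 symbols. The level of each of 18193 genes was that of its probe set with the highest mean over 12 arrays, a choice among several probe sets for 9010 genes. A linear model of the 4 exposed group means was fitted with limma 3.58.1 in R 4.3.3, with moderated standard errors (8 residual and 4.55 prior degrees of freedom) and two-sided p-values adjusted by Benjamini-Hochberg across all genes (threshold 0.05). The fit was also run on simulated arrays with planted changes and independent noise for each gene and array. Those arrays held no clock shift and no pool that stood apart, so they cannot show how the fit handles these. No control array entered, and 3 pools a group limit the precision (median standard error 0.102). Promoter sequences from RefSeq were searched with Python 3.11.15 and aligned with Biopython 1.88, and figures drawn with matplotlib 3.10.9. Named genes were the up to 15 largest called differences in each direction, called members of 54 lists (up to 6 a list, or the 4 smallest p of a described list), clock genes, a panel of 24 genes and genes called for a lineage by generation difference. Members, lists and panel were chosen with earlier results of these data known. Alternatives changed the arrays in the fit, the probe sets, the filter on dim genes, moderation, array weights, centring and covariates, or left out 1 pool.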

Additional observations from a re-analysis of the deposited data

Results flagged for a closer look

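The difference between generations was not the same in both lineages for 3 genes, by the limma test of (ON F2 minus ON F1) minus (IUGR F2 minus IUGR F1). Adi1 had a value of -1.61, Aqp4 of -2.97 and Mmd2 of 1.78 on the log2 scale. Adi1 kept this call under every alternative fit. Aqp4 and Mmd2 lost it with probe sets averaged per gene and with the clock score in the fit. Aqp4 also lost it without most single pools.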

How the results depend on the processing

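No paired analysis was possible because pool numbers are unique to each pool and the groups share none. The count of 188 genes became 7 (3 higher, 4 lower) with the 6 ON arrays alone, 60 (20 higher, 40 lower) with array quality weights and 0 (0 higher, 0 lower) with the clock score in the fit. It was 258, of which 199 were lower, with each array centred on its median. Among list genes the calls became 2, 10 and 0 under the first 3 of these. The cause of these changes was not tested. The fit of the 6 ON arrays alone has fewer arrays and estimates the spread without the IUGR groups. Leaving out 1 ON pool gave 22 to 203 genes (10 to 61 higher, 12 to 145 lower, 4 to 36 list genes), and leaving out 1 IUGR pool, an alternative chosen after seeing the data, 74 to 183 (26 to 58 higher, 48 to 125 lower, 14 to 25 list genes). Between IUGR generations the 4 calls became 2 with all 15 arrays, 2 with the mean of probe sets, 20 with array weights and 0 with the actin ratio as a covariate, 0 to 2 without 1 IUGR pool and 2 to 6 without 1 ON pool. The 3 lineage by generation calls became 1 with the mean of probe sets, 2 to 4 without 1 ON pool and 2 without 1 IUGR pool. Changes of sign were counted only for named genes whose difference exceeded its standard error and, with the clock score, that are not among its 12 genes, so that Per2, Cry2 and Bhlhe40 without pool 14, for example, are not among them. By that count, all in genes that were not called, sign changed with the clock score in Hlf (-0.0578), Usp2 (-0.00759), Wee1 (-0.287), Lonrf3 (0.185), Scd1 (0.0265), Irs1 (0.0331) and Cpt1a (-0.0164). Without 1 pool Wee1 lay between -0.0229 (without ON F2 pool 14) and 0.676, and Fasn between -0.650 and 0.0366 (without ON F1 pool 7). Over whole lists the clock score left 1 of 8 opposing-arm genes, 12 of 23 fatty acid synthesis genes and 10 of 24 acute phase genes with a positive difference, against 8, 5 and 22 without it.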

Other observations

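Of the 188 genes that differed between ON F2 and ON F1 livers, 14 kept their calls without any 1 of the 12 pools, and 6 of these have not been described. They were chosen after their values were seen. Cd52, a surface glycoprotein of lymphocytes and other leukocytes, had 4.93, 4.83 and 4.93 in the ON F2 pools, against 5.64, 5.82 and 5.70 in the ON F1 pools, a difference of -0.82 ± 0.11 (limma adjusted p = 0.0118). Gps2, a subunit of the NCOR corepressor complex, had 5.26, 5.34 and 5.26 in the ON F2 pools, against 5.79, 5.97 and 5.85 in the ON F1 pools, a difference of -0.58 ± 0.08 (limma adjusted p = 0.0113). Both genes were lower in every ON F2 pool than in any ON F1 pool, and the ON F2 mean of Cd52, 4.90, is dim. Ddx5, an RNA helicase, had 10.84, 10.95 and 10.81 in the ON F2 pools, against 10.27, 10.07 and 10.28 in the ON F1 pools, a difference of 0.66 ± 0.09 (limma adjusted p = 0.00981). H2bc21, a histone H2B gene, had 6.50, 6.42 and 6.51 in the ON F2 pools, against 5.86, 5.50 and 5.51 in the ON F1 pools, a difference of 0.86 ± 0.12 (limma adjusted p = 0.0113). These 2 genes were higher in every ON F2 pool. Pus7l, a pseudouridine synthase-like protein, and Zfp704, a zinc finger protein, fell, at -0.67 ± 0.09 (limma adjusted p = 0.00981) and -0.53 ± 0.07 (limma adjusted p = 0.0118). The ON F2 mean of Pus7l, 4.83, is dim.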
